A study of Mus musculus with 2 samples.

Results

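Natural killer (NK) cells of the metastatic lung were chosen from single-cell counts of 2 dissociated whole lungs, and 50 of 5614 kept cells were members. A kept cell had 500 to 7000 detected genes and at most 10% of its unique molecular identifiers (UMIs, each 1 counted RNA molecule) from mitochondrial genes. A member had at least 3 UMIs and at least 6 per 10000 UMIs of Gzma, Ncr1, Klrb1c and Klrd1 together, at least 1 UMI of Nkg7, and at most 1 UMI each of the summed Cd3d, Cd3e and Cd3g and of the summed Cd79a and Cd79b. The low-burden lung held 46 members and the high-burden lung held 4. Everything that concerns the high-burden lung therefore rests on 4 cells of 1 mouse.

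Both donors were female FVB/NJ mice, injected in the tail vein at 10 weeks of age with the murine breast carcinoma line Met-1, and the lungs were perfused before dissociation. The low-burden lung was taken at week 1 and the high-burden lung at week 3, with 1 mouse in each group, so no group was replicated and no test between groups was possible. Neither lung was free of injected cells, and week and burden cannot be told apart. All intervals given here are 95% intervals for counting error only and say nothing about the spread between mice.

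NK cells are innate lymphocytes that kill stressed or transformed cells without rearranged antigen receptors. They store granzymes and perforin in granules, read target cells through activating and inhibitory receptors of the NKG2 and Ly49 families, and release chemokines and interferon gamma. Lung NK cells circulate through the capillary bed and are well known for limiting the seeding of blood-borne tumor cells. Group 1 innate lymphoid cells resident in tissue (ILC1) share many of these genes.

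Genes that led the NK cells over all other kept cells of the same lung were ranked by the smaller of the ratios in the 2 lungs. Of the 15 leading genes, 5 were the genes of the rule: Gzma, Nkg7, Klrd1, Ncr1 and Klrb1c. The other 10 were Ccl5, Cma1, Klra4, Ctsw, Txk, Ptprcap, Il2rb, Sept1, Ly6c2 and Hcst. RefSeq promoter windows (GRCm38.p6, 250 bases before to 50 after the gene start) were matched for 9 of the 15 genes. The core motif of RUNX factors (TGTGGT, either strand) lay in 6 of these 9 windows and in 16.8% of all 32851 windows. The 6 were those of the rule genes Gzma, Nkg7, Ncr1 and Klrb1c, and of Cma1 and Ly6c2. The windows of Klra4, Txk and Hcst, also outside the rule, had none. Genes of the rule were picked in advance, so the share of 6 in 9 is a description. An ETS core (GGAAGT, either strand) lay in 4 of 9 and in 23.8% of all windows, and a T-box core (GGTGTGA, either strand) in 1 of 9 and in 3.98% of all. Such matches describe letters only and show neither binding nor use. The windows of Gzma, Ncr1 and Nkg7, the killer protease, the activating receptor NKp46 and the granule protein that define these cells, are shown because all 3 carry a RUNX core. Capitals mark the RUNX core and, as the second run of capitals in Nkg7, the T-box core; the second run in Ncr1 is another RUNX core.
Gzma (chr13:113100932-113101231, minus strand): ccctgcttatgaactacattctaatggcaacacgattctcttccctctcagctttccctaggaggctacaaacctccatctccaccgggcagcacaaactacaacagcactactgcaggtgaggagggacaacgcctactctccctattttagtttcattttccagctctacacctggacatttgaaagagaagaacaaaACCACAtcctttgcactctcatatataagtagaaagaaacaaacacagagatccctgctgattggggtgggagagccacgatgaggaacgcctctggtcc
Ncr1 (chr7:4337465-4337764, plus strand): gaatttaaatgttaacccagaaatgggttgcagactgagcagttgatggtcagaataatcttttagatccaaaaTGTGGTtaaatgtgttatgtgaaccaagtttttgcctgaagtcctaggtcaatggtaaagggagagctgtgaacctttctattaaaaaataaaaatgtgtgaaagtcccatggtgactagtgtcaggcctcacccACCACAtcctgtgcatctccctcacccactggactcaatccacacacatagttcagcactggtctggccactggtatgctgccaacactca
Nkg7 (chr7:43436888-43437187, plus strand): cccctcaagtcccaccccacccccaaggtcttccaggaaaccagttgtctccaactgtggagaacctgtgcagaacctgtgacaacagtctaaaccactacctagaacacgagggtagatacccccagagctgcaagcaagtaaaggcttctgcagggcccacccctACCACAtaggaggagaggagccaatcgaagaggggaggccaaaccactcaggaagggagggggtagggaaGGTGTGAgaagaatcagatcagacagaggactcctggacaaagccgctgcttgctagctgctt

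The rule was read first for what it let in and kept out. In the low-burden lung 75 kept cells reached the marker sum, 65 of them also reached 6 per 10000, 57 also had Nkg7, and 11 of those were set aside for 2 or more Cd3 UMIs. In the high-burden lung the same steps left 18, 9 and 6 cells, and 2 were set aside for Cd3 sums of 14 and 23 UMIs. In the low-burden lung 3 members sat at the minimum of 3 marker UMIs, and no cell of either lung met the rest of the rule with 2. In the high-burden lung 4 cells met every part except the share per 10000, at 0.721, 2.19, 2.71 and 4.10 marker UMIs per 10000. Among those, the cell with 9766 UMIs in all held 4 marker UMIs and 7 UMIs of Nkg7. In the low-burden lung 1 cell failed in this way, at 2.56 per 10000. These values were used by the rule and are given as a description.

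Members of the low-burden lung held 2417 to 11455 UMIs, with a median of 3427.5, and 1056 to 3505 detected genes. The 4 high-burden members held 5423, 7467, 11917 and 13998 UMIs. No member had under 1000 detected genes, the lower limit used in the study. The 2 lungs shared 11 cell barcodes, and 1 of these belonged to a member.

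NK cells made up 1.79% of kept cells in the low-burden lung (46 of 2574, exact binomial interval 1.31% to 2.38%) and 0.132% in the high-burden lung (4 of 3040, 0.0359% to 0.337%). Among kept cells with a UMI of Ptprc, the pan-leukocyte gene CD45, the shares were 3.60% (35 of 971, 2.52% to 4.98%) and 0.340% (4 of 1178, 0.0926% to 0.867%). Among cells of the NK, T and B gates combined they were 12.7% (46 of 361, 9.48% to 16.6%) and 1.98% (4 of 202, 0.542% to 4.99%). In all 3 the intervals of the lungs lay apart.

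The last denominator depended on how T cells were gated. The T gate (2 or more Cd3 UMIs, no Ncr1 or Klrb1c) had no term per 10000 UMIs, and its cells in the high-burden lung were deep, with a median of 12054 UMIs against 3061 in the low-burden lung. Requiring 6 Cd3 or Cd79 UMIs per 10000, an alternative chosen after seeing the data, cut the T gate from 157 to 44 cells at high burden and from 278 to 242 at low burden. The NK share of gated lymphocytes was then 14.4% (46 of 319, 10.8% to 18.8%) at low burden and 5.56% (4 of 72, 1.53% to 13.6%) at high burden, and the intervals overlapped. The lungs also differed in depth under every denominator. The shallowest kept cell held 2388 UMIs at low burden and 5163 at high burden. That high-burden minimum lies above the median of 3427.5 UMIs of the low-burden members. Cells as shallow as most low-burden members were thus absent from the kept cells of the high-burden lung. Cell recovery from dissociation was not measured, and the part that depth and free RNA play in the share was not tested.

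Ccl5, a chemokine that draws T cells and monocytes and a marker of these cells that the rule did not use, was present in every member. Across the 46 low-burden cells it ranged from 19.3 to 743.5 UMIs per 10000 with a median of 141. The 4 high-burden cells held 17.6, 40.2, 53.5 and 57.9 per 10000. Of the low-burden cells, 35 lay above all 4 of these and 11 lay among them, so the lungs overlapped in the lower part of the low-burden range. Summed over cells, the Ccl5 level was 15824 CPM (UMIs of the gene per 1000000 UMIs of the summed cells) at low burden (2792 UMIs) and 4149 CPM at high burden (161 UMIs), a log2 ratio of high over low of -1.93 (-2.17 to -1.70). The same ratio was -2.58 in T-gate cells and -1.32 in T-gate cells that also reached 6 per 10000.

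Ccl5 lies on the minus strand of chromosome 11 (83525778 to 83530518, GRCm38). In the low-burden lung the NK cells, 1.79% of kept cells, held 41.9% of all Ccl5 UMIs (2792 of 6670, 40.7% to 43.1%), and in the high-burden lung they held 3.09% (161 of 5207, 2.64% to 3.60%). Over all kept cells the Ccl5 level was 492 CPM at low burden and 101 CPM at high burden.

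**Figure D1:**
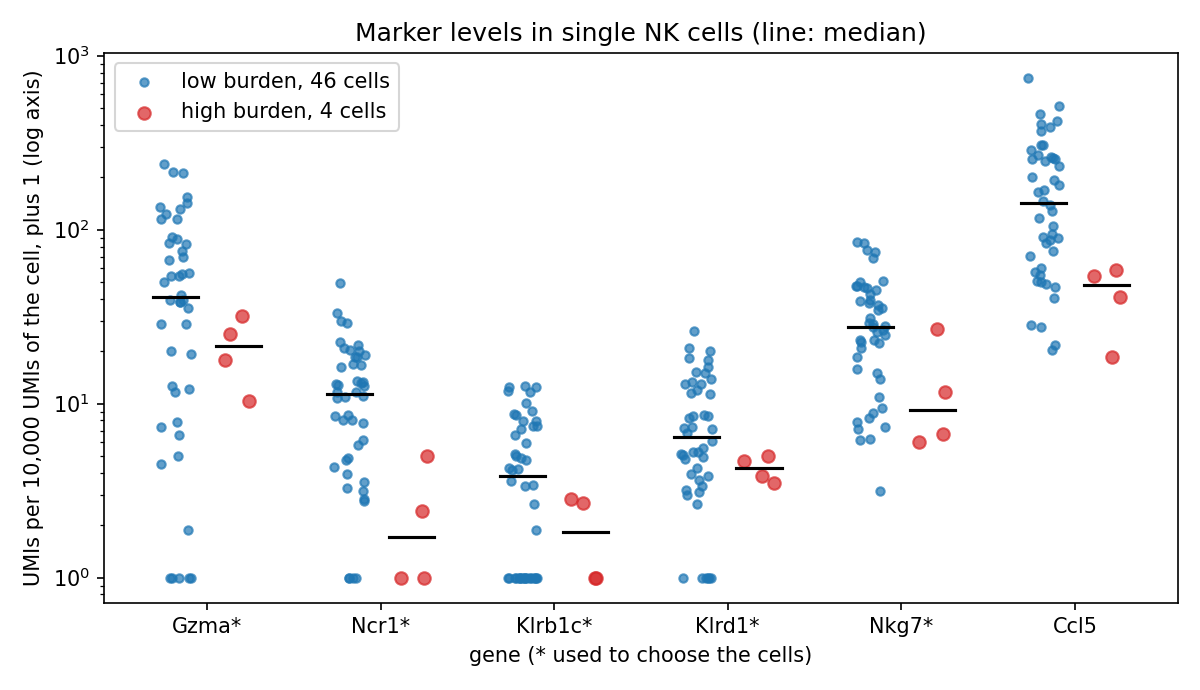
UMIs per 10000 UMIs of the cell, plus 1, on a log axis, for the 5 positive genes of the rule and Ccl5 in each NK cell (blue, 46 low-burden cells; red, 4 high-burden cells; black line, median). For Ccl5 all 4 high-burden cells sit below the low-burden median of 141, while 11 low-burden cells sit among them.

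The rule genes had the following values, which the rule itself shaped. Gzma, the trypsin-like granule protease granzyme A, ranged from 0 to 236 per 10000 in low-burden cells with a median of 39.9, and was 9.29, 16.8, 24.0 and 30.8 in the high-burden cells. Among low-burden members 5 had no Gzma UMI and 1 entered through Gzma alone. Nkg7, a membrane protein of killer granules, had a median of 26.7 at low burden and a range of 5.03 to 25.8 at high burden. Ncr1, which encodes NKp46, was detected in 42 of 46 low-burden and 2 of 4 high-burden members, at 1009 CPM and 129 CPM (178 and 5 UMIs). Klrd1, which encodes CD94, was detected in 40 of 46 and in 4 of 4. Klrb1c, which encodes NK1.1, was detected in 28 of 46 and in 2 of 4.

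Ncr1 UMIs were also found outside the members, in 89 kept cells of the low-burden lung in all and in 38 of the high-burden lung. Members held 73.9% of the Ncr1 UMIs of the low-burden lung and 11.4% of those of the high-burden lung. Since a UMI may come from RNA that is free in the suspension, a cell with a single UMI outside the rule was not read as an NK cell.

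Identity genes that the rule did not use set the low-burden members apart from the T and B gates of the same lung. The comparison describes gates that were drawn on related genes and is no test. Gzmb, the granzyme that activates caspases, was at 306 CPM in NK cells (54 UMIs in 19 of 46 cells), at 5.66 CPM in T-gate cells and at 0 in the 37 B-gate cells, whose median depth of 3534 UMIs was close to that of the NK cells. Klra4, an activating Ly49 receptor, was at 431, 0.809 and 0 CPM in the same order. The value of each Ly49 gene singly is uncertain, because these genes are near-identical paralogs whose content differs between mouse strains. Klre1, a lectin-like receptor, was at 232, 1.62 and 0 CPM, and Cma1, a mast cell type chymase gene, at 272, 1.62 and 0 CPM. After thinning every cell to 1500 UMIs, which left no cell of the 3 gates out, Gzmb was detected in 34.8% of NK cells, 0.719% of T-gate cells and no B-gate cell, which allows up to 8.11%. Ccl5 was detected in 100% of the thinned NK cells, 18.3% of T-gate cells and 16.2% of B-gate cells. By contrast Sftpc, a surfactant gene that no lymphocyte expresses, had similar shares in the 3 gates, at 76.1%, 79.1% and 83.8%. Such shares do not measure amounts. Summed over 6 epithelial genes, the levels in the same order were 3814, 3786 and 11821 CPM.

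The adaptors that carry activating signals were not restricted to NK cells. Tyrobp, which encodes DAP12, was at 2460 CPM in NK cells, 306 in T-gate cells and 558 in B-gate cells, and was detected in 45 of 46 members. Fcer1g, the Fc receptor gamma chain, was at 1207, 184 and 324 CPM. Hcst, which encodes DAP10, the partner of NKG2D, was at 453, 283 and 48.0 CPM. Klrk1, which encodes NKG2D itself, was at 408, 22.6 and 12.0 CPM. Of the list of activating receptors and adaptors, all 24 genes with a row in the count tables had a UMI in the low-burden NK cells, and 13 had one in 25% or more of the members. In the high-burden NK cells 16 of the 24 had a UMI.

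**Figure D2:**
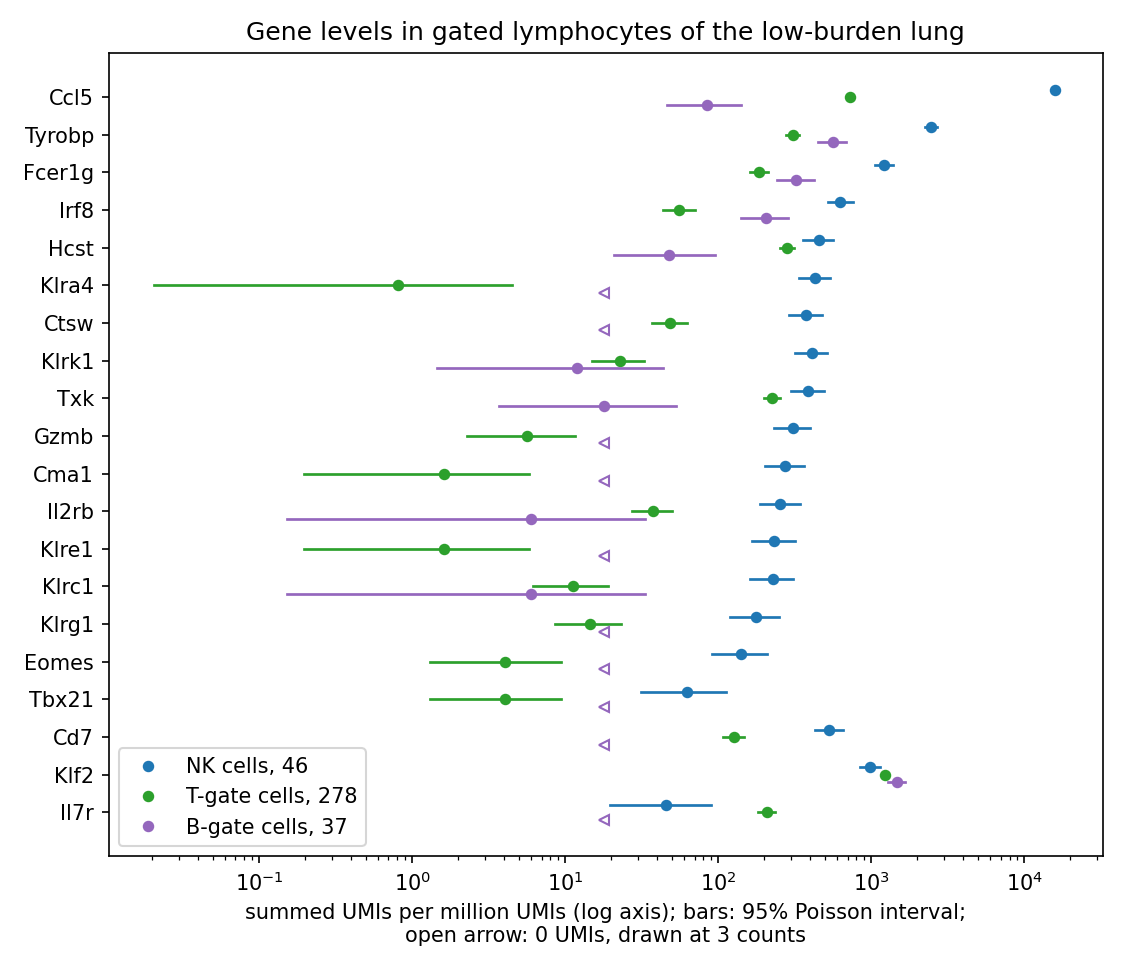
Summed level in CPM (log axis, bars 95% Poisson intervals, open arrows 0 UMIs drawn at 3 counts) of 20 genes in 46 NK cells, 278 T-gate cells and 37 B-gate cells of the low-burden lung. Ccl5 is at 15824 in NK cells, 726 in T-gate cells and 84.0 in B-gate cells, whereas Il7r is at 45.3 in NK cells and 207 in T-gate cells.

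Inhibitory receptors were present and classical checkpoint genes were at or near 0. Klrc1, which encodes NKG2A, had 40 UMIs in 19 of 46 low-burden members and none in the 4 high-burden members. Set against a floor of 3 counts over the 4 cells, its level at high burden was at least 2.93-fold lower. Macrophage-rich cells, described below, held most of the high-burden UMIs. In the other 2 cells (12890 UMIs) 3 counts lie above the Klrc1 level of the 46 low-burden members, so a difference was not detectable there. Klrg1, an inhibitory receptor for cadherins, had 31 UMIs in 15 low-burden members and 1 UMI at high burden (log2 ratio -2.77, -8.12 to -0.18). Tigit, Lag3, Pdcd1 and Ctla4 had no UMI in any member, and 0 of 46 cells allows a share of up to 6.52% of cells with a UMI. Of the 22 genes of the list, 15 had a UMI at low burden and 6 at high burden.

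Among transcription factors, the T-box genes that direct NK development were detected at low levels. Eomes was at 142 CPM (25 UMIs in 18 of 46 members) against 4.04 CPM in T-gate cells and 0 in B-gate cells. Tbx21, which encodes T-bet, was at 62.3 CPM (11 UMIs in 11 members) against 4.04 and 0. The high-burden members held 1 UMI of Eomes and none of Tbx21, and 3 counts there lie above the low-burden Tbx21 level, so a difference was not detectable at this depth. Irf8, a factor shared with myeloid and B cells, was at 629 CPM in NK cells, 55.8 in T-gate cells and 204 in B-gate cells. Tcf7 and Lef1, factors of naive T cells, were at 45.3 and 34 CPM in NK cells against 144 and 237 in T-gate cells.

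Of 17 genes listed for ILC1 and tissue residency, 15 had a UMI in the low-burden members and 5 were detected in 25% or more of them. After thinning to 1500 UMIs, Cd7 was detected in 47.8% of the members, Rgs1 in 30.4%, Ltb in 26.1% and Tmem176a in 23.9%, whereas the surface markers Itga1, Cxcr6 and Il7r were detected in 6.52%, 4.35% and 6.52%. Itga1, which encodes CD49a, had 4 UMIs in 4 of 46 low-burden members and 3 UMIs in 2 of the 4 high-burden members. Both of those high-burden cells carried RNA of other cell types, described below. The cell with 7467 UMIs, rich in endothelial genes, held 1 of the UMIs, and the cell with 13998 UMIs, rich in macrophage genes, held 2. Cxcr6, a residency receptor, had 4 UMIs at low burden and none at high burden. Il7r was detected in 5 low-burden members. Itgam, which encodes CD11b of mature NK cells, was detected in 12 of 46 members and S1pr5, an egress receptor, in 12. Itga2, which encodes CD49b, had no UMI in either lung.

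Other effector transcripts were found in part of the cells. Ccl4, a chemokine of activated NK cells, was at 351 CPM at low burden (62 UMIs in 16 cells) and at 490 CPM at high burden (19 UMIs in 2 cells), a log2 ratio of 0.48 (-0.35 to 1.24). Both of those high-burden cells also carried the macrophage genes described below, and the other 2 held none. Ifng had 5 UMIs in 5 low-burden members and none at high burden. Xcl1, which draws cross-presenting dendritic cells, had 14 UMIs in 8 members at low burden and 2 UMIs in 1 member at high burden. Prf1, which encodes perforin, had 6 UMIs in 4 low-burden members. Mki67, a gene of cycling cells, had 1 UMI among all 50 members. Over all proliferation genes the low-burden members had a median of 24.7 UMIs per 10000, but 1 cell stood at 241 with 3 UMIs of Top2a, a DNA topoisomerase of dividing cells. The high-burden members lay between 28.1 and 35.0, and 1 of them also held 3 UMIs of Top2a.

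Receptors for interleukins included the beta and gamma chains that the receptors of interleukin 2 and interleukin 15 share. Il2rb was at 255 CPM in low-burden NK cells, 37.2 in T-gate cells and 6.0 in B-gate cells, and Il2rg was at 215, 125 and 216 CPM. Il18rap, the accessory chain of the interleukin 18 receptor, was at 119 CPM against 8.89 and 6.0. Il2rg had 38 UMIs at low burden and none in the 4 high-burden members, where a floor of 3 counts makes the level at least 2.79-fold lower, while Il2rb had 45 and 4 UMIs. In the 2 high-burden cells that were not macrophage-rich, 3 counts lie above the low-burden Il2rg level, so a difference was not detectable there.

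The 46 low-burden members varied among themselves in granule and chemokine content. Per 10000 UMIs, Gzma and Ccl5 went together across these cells (Pearson r 0.68, Spearman rho 0.66, n = 46 cells of 1 library), as did Gzma and Gzmb (r 0.53, rho 0.48). All points share 1 library, and the Ccl5 share itself went down with total UMIs (rho -0.58), as the Gzma share did (rho -0.32). Gzma is also a gene of the rule, which shaped its spread here and in the splits below. The coefficients were not repeated without members rich in RNA of other cell types.

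Cells with a UMI of Klrg1, a gene of late NK maturation, differed in content from those without. The 15 cells with Klrg1 held Gzma at 8555 CPM against 3569 CPM in the other 31, Ccl5 at 20345 against 13551, Cma1 at 491 against 162 and Klra4 at 711 against 290. The same cells were lower in Ltb, which encodes lymphotoxin beta (136 against 341 CPM), in Cd7 (322 against 639) and in Ctla2a, a cathepsin inhibitor gene (220 against 528). Median depth was 3582 UMIs with Klrg1 and 3392 without. Members rich in RNA of other cell types, described below, lay mostly among the 31 without Klrg1, including the deepest cell with 11455 UMIs. The cell with 120 macrophage UMIs lay among the 15 with Klrg1. The split was not repeated without such cells.

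The 15 cells with a UMI of Cd27, a gene of earlier NK stages, leaned the other way for several of these genes. They held Ltb at 582 CPM against 138 in the other 31, Cd7 at 995 against 333 and Ctla2a at 657 against 325, with Gzmb at 131 against 382 and Gzma at 4130 against 5716. Ccl5 was at 16706 against 15442 CPM, a log2 ratio of 0.11 (-0.003 to 0.23). That interval counts UMIs and leaves out the spread between cells. Both Klrg1 and Cd27 were detected in 4 cells, Klrg1 without Cd27 in 11, Cd27 without Klrg1 in 11 and neither in 20. Cells of 1 mouse are not replicates, and a gene without a UMI in a cell of this depth may still be expressed there.

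**Figure D3:**
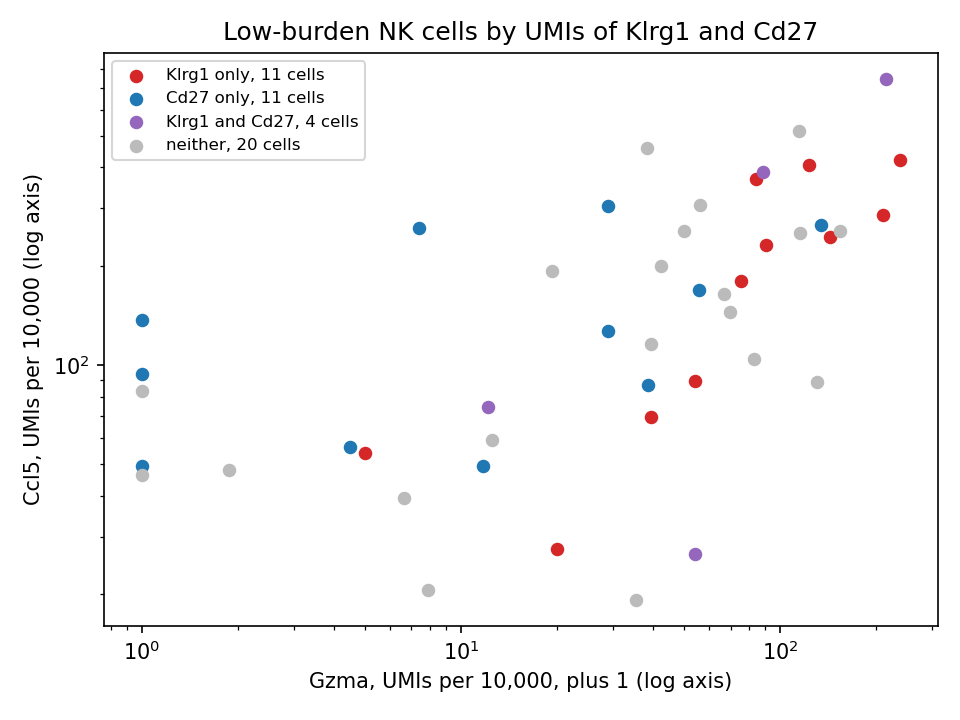
Gzma (plus 1) against Ccl5, both in UMIs per 10000 on log axes, in the 46 low-burden NK cells, colored by which of Klrg1 and Cd27 had a UMI. Cells with Klrg1 alone lie mostly toward the upper right (Gzma at 8555 CPM in all 15 cells with Klrg1), and the 5 cells without Gzma are at the left edge.

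RNA of other cell types was checked in every member. Of 11 T cell genes chosen beside Cd3, 7 were found among the counted genes. Of these 7, 4 had a UMI at low burden, at 85.0 CPM in all against 728 CPM in T-gate cells. At high burden none of the 7 had a UMI. A single Cd3 UMI, the most the rule allowed, was held by 7 members at low burden and 1 at high burden. Cd8a, Cd5 and Trat1 were at 0. All 8 genes for ILC2 and basophils were at 0 in both lungs. Alveolar epithelial and club cell genes were present in all 46 low-burden members, at 12.0 to 72.8 UMIs per 10000, and their sum was 3814 CPM in NK cells, 3786 CPM in T-gate cells and 11821 CPM in B-gate cells. At high burden it was 2113 CPM in NK cells, 12935 CPM in T-gate cells and 4886 CPM in B-gate cells, so these genes were no even background across gates. Read against their level over all kept cells, the NK values give a share of foreign RNA of 8.63% at low burden and 20.7% at high burden, which is a rough figure for that reason.

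Macrophage genes divided the high-burden members. The cells with 5423 and 7467 UMIs held 1 UMI each of Lyz2, the macrophage lysozyme, and 1 and 0 UMIs of the complement genes C1qa, C1qb and C1qc together. The cells with 11917 and 13998 UMIs held 96 and 259 UMIs of Lyz2, 70 and 38 of C1qa, 33 and 37 of C1qb, and 47 and 29 of C1qc. The first of these deep cells also had 254 UMIs of Cd74 and 88 of H2-Aa, genes of class II antigen presentation, and the second had 106 UMIs of Cxcl2, a neutrophil chemokine. Both deep cells still held 20 and 13 UMIs of Gzma and 21 and 81 UMIs of Ccl5.

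Over the 12 monocyte or macrophage genes the high-burden members ranged from 4.02 to 342 UMIs per 10000, and all 12 had a UMI. The low-burden members ranged from 0 to 297 with a median of 7.47. In the low-burden lung 4 members held 10 or more UMIs of Lyz2 and C1q genes (10, 22, 67 and 120), together with 6, 16, 44 and 35 UMIs of Chil3, a gene of alveolar macrophages. Another member held 130 UMIs of Tagln and 84 of Tpm2, genes of smooth muscle, and 1 held 292 UMIs of Cd74. Endothelial genes marked another of the high-burden members. Over the 6 endothelial genes the cell with 7467 UMIs held 83.0 UMIs per 10000, among them 24 UMIs of Cldn5 and 4 of Cdh5, junction genes of vessels, while the other 3 held 0.839 to 3.69. The low-burden members ranged from 0 to 107 with a median of 3.83. Of the high-burden members, the cell with 5423 UMIs was thus the only one with under 10 UMIs of both the macrophage genes (Lyz2 and C1q) and the endothelial genes. That cell held 1 UMI of Cd3d and none of Ncr1. Whether members with RNA of other cell types are doublets was not tested. Scrublet, a doublet caller, marked 3 cells of the low-burden lung and 8 of the high-burden lung and no member, a yield under which it cannot be taken to have worked.

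**Figure D4:**
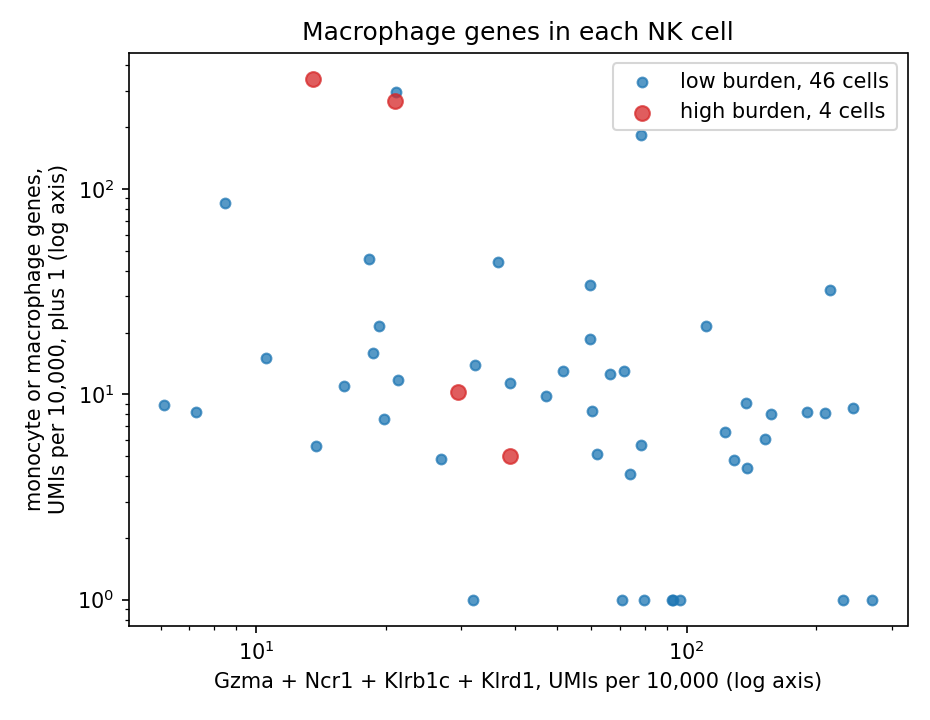
Summed monocyte or macrophage genes (plus 1) against the summed 4 marker genes of the rule, both in UMIs per 10000 on log axes, in each of the 50 NK cells (blue, low burden; red, high burden). Of the 4 high-burden cells, 2 lie near the top at 268 and 342 and 2 lie at 4.02 and 9.22, within the bulk of the low-burden cells.

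Between lungs, 572 genes passed the filter of 50 UMIs in all members and detection in 10% of the members of either lung. Of these, 44 were at least 2-fold higher (7.69% of those compared) and 89 at least 2-fold lower (15.6%) in the high-burden members, and the median log2 ratio was -0.02. The 10 genes with the highest ratios were C1qc, C1qb, C1qa, Cxcl2, Cd14, Apoe, Ctss, Ctsc, Lyz2 and Spp1. For Lyz2 the level was 1536 CPM at low burden and 9200 CPM at high burden, but 355 of its 357 high-burden UMIs lay in the 2 deep cells. Without the 6 members of both lungs with 10 or more macrophage UMIs the Lyz2 log2 ratio was -1.09 in place of 2.58 and that of Apoe -0.64 in place of 2.77. That alternative, chosen after seeing the data, left 42 and 2 cells, the latter including the endothelial-rich one, and 447 genes, of which 20 (4.47%) were at least 2-fold higher and 80 (17.9%) at least 2-fold lower.

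Spp1, which encodes osteopontin, had 3, 5, 11 and 15 UMIs in the 4 high-burden members, with the deep cells highest. Its log2 ratio was 2.52 (1.75 to 3.30) in NK cells and 4.15 in all other kept cells. With free RNA subtracted the NK ratio was -0.55. Spp1 is 1 of 8 genes listed for the carcinoma cells, which summed to 11.1 to 14.3 UMIs per 10000 in the high-burden members, with 5 of the 8 genes detected, and to 0 to 21.4 in the low-burden members, with Spp1 alone detected.

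The 10 genes with the lowest ratios were Tpm2, Cbr2, Dstn, Rpl9-ps6, Tagln, Dusp5, Chil3, Cd7, Tra2b and Gsn. Single cells carried several of them: the low-burden cell with 11455 UMIs held 98% of the Tpm2 UMIs of that lung's NK cells, 99% of those of Tagln and 51% of those of Dstn, and another cell held 70% of those of Cbr2. Cd7, Dusp5, Tra2b and Rpl9-ps6 were spread over cells, the largest cell holding 9% to 13% of their UMIs. Rpl9-ps6 is annotated as a pseudogene of a ribosomal protein gene, and reads may be split between them. Cd7 had 94 UMIs in 26 of 46 low-burden members and 3 UMIs in 2 of 4 high-burden members (log2 ratio -2.78, -5.09 to -1.19), beside -2.31 in T-gate cells and -0.52 in T-gate cells that also reached 6 per 10000. Dusp5, a phosphatase that acts on ERK, had 57 UMIs in 29 members and 1 UMI at high burden (-3.65, -8.98 to -1.11). Gsn, which encodes the actin-severing gelsolin, was at 1717 CPM and 283 CPM, with 48% of the low-burden UMIs in 1 cell.

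Gene lists were compared by their summed levels. The 20 NK identity genes outside the rule were at 19377 CPM at low burden and 5386 CPM at high burden, a log2 ratio of -1.85 (-2.06 to -1.65), and at -1.67 (-2.0 to -1.35) without the macrophage-rich members and -1.31 (-1.77 to -0.88) without macrophage-rich and endothelial-rich ones, which leaves 1 high-burden cell. Ccl5 made up 2792 of the 3419 low-burden UMIs. Of these genes 7 passed the filter, 6 of them at least 2-fold lower and none at least 2-fold higher, with a median of -1.54 against -0.02 over all genes compared, of which 15.6% were at least 2-fold lower. The low-burden members held 176443 UMIs against 38805 at high burden, so a gene high at low burden passed the filter more readily. Counts of listed genes past the filter are thus a description and no test. Without Ccl5 the sum of the identity list was at -1.52 (-1.98 to -1.10). In this paragraph, lists that hold genes of the rule are given without those genes. The granule list without Gzma and Nkg7 was at -0.29 (-0.59 to -0.003), and of its 6 genes past the filter 3 were at least 2-fold lower and 1 at least 2-fold higher. With these 2 genes kept, 77 of the 219 high-burden UMIs of the granule list lay outside the macrophage-rich members. The sum without the 2 genes was not repeated without those members. Inhibitory receptors without Klrd1 were at -2.26 (-3.49 to -1.25) on 174 and 8 UMIs, with no gene past the filter. Cytokines and chemokines were at -1.66 (-1.87 to -1.46) with Ccl5 and at 0.13 (-0.36 to 0.60) without it, so over all members the direction of that list was that of Ccl5. Of its 208 high-burden UMIs, 69 lay outside the macrophage-rich members, and Ccl5 made up 29 and 30 of these in the 2 cells. The sum without Ccl5 was not repeated without the macrophage-rich members.

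Other lists also depended on which of the 4 high-burden members were counted. Activating receptors and adaptors were at -0.55 (-0.76 to -0.33) over all members, at -0.33 (-0.55 to -0.11) without the rule genes Ncr1 and Klrb1c, and, with those genes, at -1.29 (-1.77 to -0.85) without the macrophage-rich cells, and of Tyrobp, which macrophages also express, 80 of the 96 high-burden UMIs lay in the 2 deep cells. Transcription factors were at -0.30 (-0.59 to -0.01) over all members and at 0.26 (-0.14 to 0.64) without the macrophage-rich ones, and genes of immature NK cells at -0.71 (-1.21 to -0.24) and 0.31 (-0.28 to 0.85). Of the 2 cells left at high burden, the endothelial-rich one held all 13 UMIs of Id3, all 4 of S1pr1 and 4 of the 5 of Klf4 found in the high-burden members. Without macrophage-rich and endothelial-rich members, which leaves 38 cells and 1 cell, transcription factors were at -0.26 and immature NK genes at 0.89. Actin and motility genes were at -0.06 over all members, -0.80 without the macrophage-rich ones and -0.39 without both kinds. Glycolysis genes were at 0.98 (0.73 to 1.23) over all members and at 0.43 (-0.06 to 0.89) without the macrophage-rich cells. Of the 5 glycolysis genes past the filter 3 were at least 2-fold higher and none lower, against 7.69% higher over all genes compared, with a median of 1.24: Gapdh at 1.24, Aldoa at 1.40 and Pkm at 1.46, beside 2.09, 1.23 and 2.35 in T-gate cells. The macrophage-rich cell with 13998 UMIs held 21 of the 42 high-burden UMIs of Gapdh, 19 of the 36 of Aldoa and 19 of the 29 of Pkm. Adhesion genes were at -0.76 and -0.24, receptors for cytokines and chemokines at -1.0 and -0.61, and class I presentation genes at -0.32 and -0.18 over all members and without the macrophage-rich ones. Genes of conventional NK maturation (-0.23 and 0.29), of ILC1 and residency (-0.21 and -0.15), of proliferation (-0.12 and -0.25) and of the immediate early response (0.02 and -0.32) had smaller ratios.

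The interferon response list was at 1.61 (1.27 to 1.94) over all members and at 1.65 (1.14 to 2.14) without the macrophage-rich ones, but at -0.80 (-3.09 to 0.78) without macrophage-rich and endothelial-rich members, on 3 UMIs in 1 high-burden cell. The higher level rested on Ifitm3, an antiviral membrane protein gene: 60 of the 191 low-burden and 72 of the 128 high-burden UMIs were of Ifitm3, which was detected in 22 of 46 and in 4 of 4 members. Per 10000 UMIs Ifitm3 was 1.84 to 41.5 in the high-burden members and no low-burden member lay above that range. The endothelial-rich cell held 31 of the 72 UMIs, the macrophage-rich cells 13 and 27, and the remaining cell 1. Isg15 and Irf7, widely used interferon-induced genes, had 7 and 8 UMIs at low burden and 1 each at high burden. Ifi27l2a had 16 UMIs at high burden, all in 1 cell. Ifitm3 is also high outside lymphocytes, at 1500 CPM in the other kept cells of the low-burden lung. In the high-burden cells it was lowest in the cell without many macrophage or endothelial UMIs. The part of RNA from other cells in its level was not tested.

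**Figure D5:**
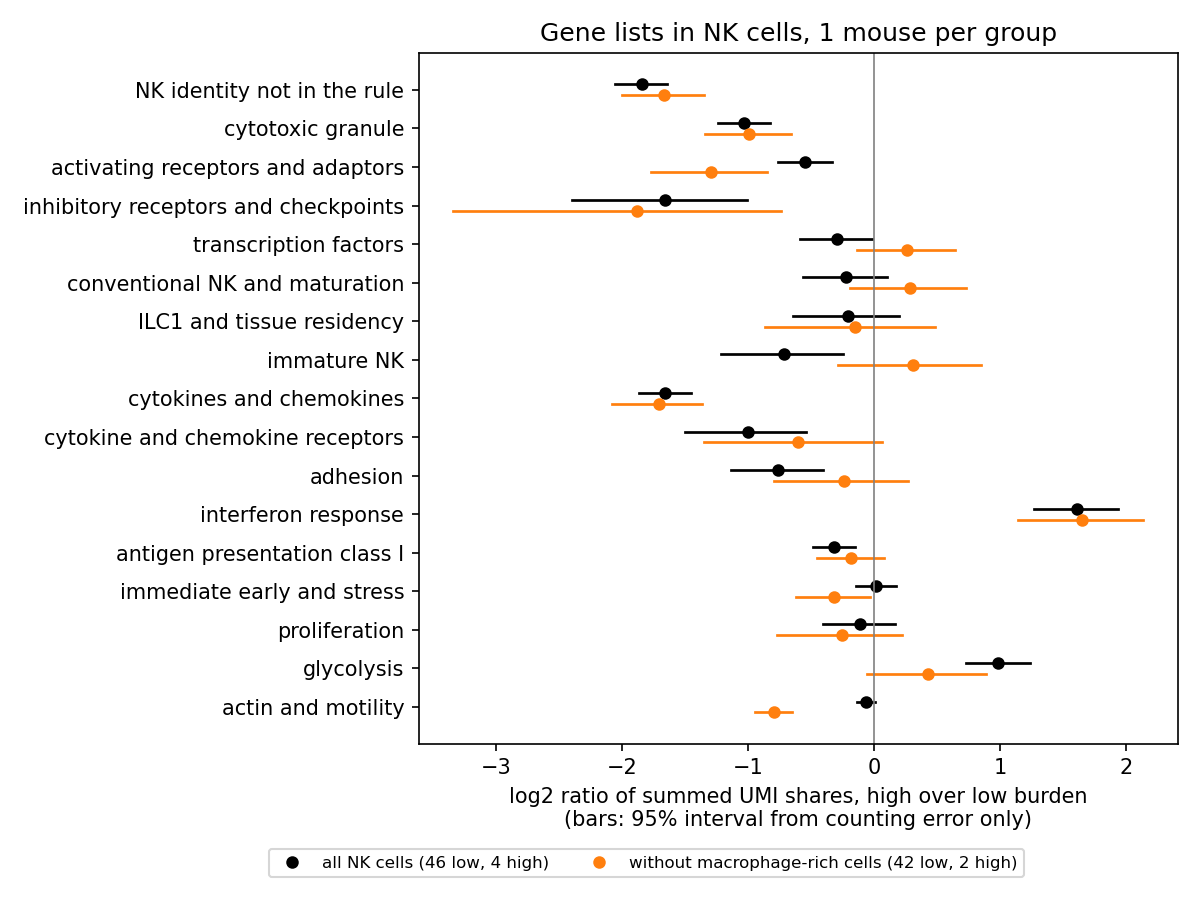
Log2 ratio of summed UMI shares, high over low burden, for 17 gene lists in all NK cells (black, 46 and 4 cells) and without members holding 10 or more macrophage UMIs (orange, 42 and 2 cells, 1 of the 2 rich in endothelial RNA), rule genes included; bars are 95% intervals from counting error only. NK identity genes lie at -1.85 and -1.67, whereas, for example, the transcription factor and immature NK lists lie on opposite sides of 0 under the 2 settings.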

How the data were processed

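Whole perfused lungs of 2 mice, 1 per group, were profiled as single cells. The deposited counts are whole UMIs per gene and cell, made by the authors with Cell Ranger 2.0.2 on mm10 plus a PYMT sequence and not normalized; the submitters' notes also name Seurat. Kept cells had 500 to 7000 genes and at most 10% mitochondrial UMIs. UMIs were summed over the NK cells of a lung and scaled to CPM, counts per 1000000 summed UMIs (176443 UMIs at low and 38805 at high burden). Genes needed 50 UMIs over both lungs and detection in 10% of the members of either lung, and a 2-fold ratio was counted. Ratios have exact conditional binomial intervals, levels Poisson and shares Clopper-Pearson intervals, all at 95%; a count of 0 was set to a floor of 3 counts. Tests were not possible with 1 mouse per group, and the statistics were tested on simulated data. Levels of different genes are not compared.

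Named genes were the 10 highest and 10 lowest ratios past the filter (rule genes left out), the 15 genes leading NK over other kept cells in the lower of both lungs' ratios (10 CPM added), and genes of the lists. Members and lists were chosen with earlier results of these data known. The T gate took 2 or more Cd3 UMIs with no Ncr1 or Klrb1c, and the B gate 3 or more Cd79 UMIs with no Cd3. Alternatives covered gene floor, gate, doublets, depth, scaling, free RNA, weighting and filters; leaving out cells with 10 or more UMIs of Lyz2, C1qa, C1qb and C1qc, leaving out cells with 10 or more UMIs of 6 endothelial genes, list sums without rule genes or Ccl5, and T and B gates with 6 per 10000, were added after seeing the data. Scrublet in scanpy 1.11.5 was run per lung. Python 3.11.15, numpy 2.4.6, scipy 1.17.1 and pandas 2.3.3 were used. Coordinates are of GRCm38, the build named mm10. Its reference strain is not FVB/NJ.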

Additional observations from a re-analysis of the deposited data

Results flagged for a closer look

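Cbr2, a carbonyl reductase gene of airway cells, went in opposite directions in the NK cells and in the T-gate cells of the same lungs. High over low burden, its log2 ratio was -3.94 in NK cells and 1.10 in T-gate cells, and the difference was not tested. In NK cells it rests on 70 UMIs at low burden, 70% of them in 1 cell, and on 1 UMI at high burden, and in T-gate cells that also reached 6 per 10000 the ratio was -0.64.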

How the results depend on the processing

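All comparisons rest on 1 mouse per group and on 4 high-burden cells, so depth limits every gene of low level. No paired analysis was possible because each group has 1 sample, and leaving out a replicate was not possible either. Under the alternatives 208 shares, gene counts and list sums stayed within the counting interval of the reported value (gene counts within 1.5 times). Another 62 moved beyond it and 7 were classed as reversed. Counted by sign alone, 18 of 221 list sums had the other sign than the reported one, as had 11 of 224 values of single named genes. The causes were not tested.

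The NK share was 3.60% and 0.340% of cells with Ptprc, 12.7% and 1.98% of gated lymphocytes, and 14.4% and 5.56% with the T and B gates at 6 per 10000 (low and high burden). With a gate without Gzma (2 UMIs of Ncr1, Klrb1c and Klrd1) the high-burden share was 0.0329%, from 1 cell, the endothelial-rich one with 7467 UMIs. Without macrophage-rich and endothelial-rich members it was also 0.0329%, from the cell with 5423 UMIs. Genes at least 2-fold higher numbered 25 without Gzma in the gate, 22 without the deepest 5% of members, 20 without macrophage-rich members, 6 with cells thinned to 1500 UMIs, 159 at a minimum of 20 UMIs and 16 at 100 UMIs, in place of 44. Genes at least 2-fold lower numbered 30 thinned, 291 at 20 UMIs and 28 at 100 UMIs, in place of 89.

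The list sums below (log2, high over low) keep the genes of the rule, which shaped them. Over all members and with those genes, granule was -1.03, inhibitory -1.66 and activating -0.55. The gate without Gzma, with that 1 endothelial-rich cell, gave NK identity -2.09, granule -1.28, activating -2.43, transcription factors 0.54, maturation 0.11, cytokines -2.05, adhesion -0.35, interferon 2.45, class I presentation 0.21, immediate early -0.16, proliferation -0.44 and actin -1.26. Without the deepest 5% of members, NK identity was -2.18, cytokines -2.17, immediate early -0.19, glycolysis 0.68 and actin -0.32. Without macrophage-rich members, activating was -1.29, transcription factors 0.26, maturation 0.29, immature NK 0.31, adhesion -0.24, immediate early -0.32, glycolysis 0.43 and actin -0.80. Thinned cells gave granule -1.42, inhibitory -3.42, transcription factors -0.75, maturation -0.69, ILC1 -0.76, immature NK -0.14, receptors -1.82 and actin -0.18. Without macrophage-rich and endothelial-rich members (1 high-burden cell), NK identity was -1.31, granule -0.80, maturation 0.45, immature NK 0.89, cytokines -1.42, receptors -0.40, adhesion -0.21, interferon -0.80, class I presentation -1.17, immediate early -0.65, glycolysis -0.20 and actin -0.39. Without endothelial-rich members alone, actin was 0.10. With no Cd3 UMI allowed, which leaves out the high-burden cell with 5423 UMIs, immature NK was -1.23 and actin 0.025. The mean over cells gave activating -0.82, cytokines -1.89 and actin -0.25, and subtracting free RNA gave glycolysis 0.69.

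Single genes that changed sign were Apoe (-0.64) and Lyz2 (-1.09) without macrophage-rich members, Apoe (-1.09) and Lyz2 (-0.91) without both kinds, Lyz2 (-2.53) and Tagln (4.28) without Gzma in the gate, Spp1 (-0.55) with free RNA subtracted, Tpm2 (0.99) and Tagln (2.99) with 5 marker UMIs and 10 per 10000, and Tagln (3.60) without the deepest members and (2.62) without its top cell.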
